A study of Mus musculus with 11 samples.

Results

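De novo lipogenesis is the pathway by which the liver makes fatty acids from sugar-derived carbon, and its transcripts were followed here through 10 genes: the transcription factors Srebf1 and Mlxipl, the enzymes Acly, Acaca, Acacb, Fasn, Elovl6 and Me1, and the accessory genes Thrsp and Pnpla3. The genes were picked by symbol for their role in the pathway, with earlier results of these data known. All 10 were found among the 31280 genes of the deposited table. Livers came from wild-type C57BL/6 mice, all kept for 8 weeks on a diet deficient in methionine and choline (MCD), which causes fat, inflammation and scarring in the liver. The MCD group (n = 5) was given water by gavage. The limonin group (n = 6) was given limonin, a bitter triterpenoid of citrus, by gavage at 100 mg/kg for 4 weeks. Neither the age of the animals nor their sex is given in the sources used here, and no group without the MCD diet was analysed here, so no value says how far a level lay from that of a normal liver.

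Expression is in FPKM, fragments scaled for transcript length and library size, so that levels can be compared between genes. Differences are log2 fold changes of FPKM + 1, limonin minus MCD, with their standard error, from limma fitted to all 10489 genes that reached 1 FPKM in at least 5 libraries. A gene was called when its Benjamini-Hochberg adjusted p over all those genes was under 0.05. The low values of genes with 1 transcript implied 15600000 to 19600000 fragments per library. The FPKM of all genes summed to between 464184 and 471623 in the MCD livers and between 404050 and 462665 in the limonin livers. Each library was labelled as a separate replicate, and the p-values measure the spread between these livers.

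In the pathway, citrate that leaves the mitochondrion is split by ATP citrate lyase (Acly) into acetyl-CoA, which the acetyl-CoA carboxylases (Acaca in the cytosol, Acacb at the mitochondrial surface) turn into malonyl-CoA. Fatty acid synthase (Fasn) builds palmitate from malonyl-CoA with NADPH, part of which comes from malic enzyme (Me1), and the elongase Elovl6 extends palmitate to stearate. Insulin acts on these genes through SREBP-1c, a product of Srebf1, and sugar acts on them through ChREBP, the product of Mlxipl.

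The members that were called moved in opposite directions. Of the 9 members that passed the filter, Me1 was called higher with limonin and Fasn was called lower. The other 7 (Srebf1, Mlxipl, Acly, Acaca, Acacb, Elovl6 and Thrsp) were not called, and Pnpla3 was too low to be tested. The share of members called was 22.2%, against 25.9% of all genes tested, so it was near the background. By direction, 1 of 9 was higher, against 7.24% of all genes, and 1 of 9 was lower, against 18.7%. The median log2 fold change of the 9 was -0.07, and that of all genes tested was also -0.07. Before adjustment 5 of the 9 (Me1, Fasn, Acly, Elovl6 and Acacb) had p under 0.05, against 39.8% of all genes tested (limma). Me1 and Acly, 2 of the 10 members, had a q-value under 0.05 in the authors' deposited table, against 16% of its 31280 genes. That share includes the genes too low for the filter, so its base differs from that of the 25.9%. In 1 of 9 members every limonin liver lay above every MCD liver, against 2.97% of all genes, and in 0 of 9 below, against 8.33%.

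**Figure D1:**
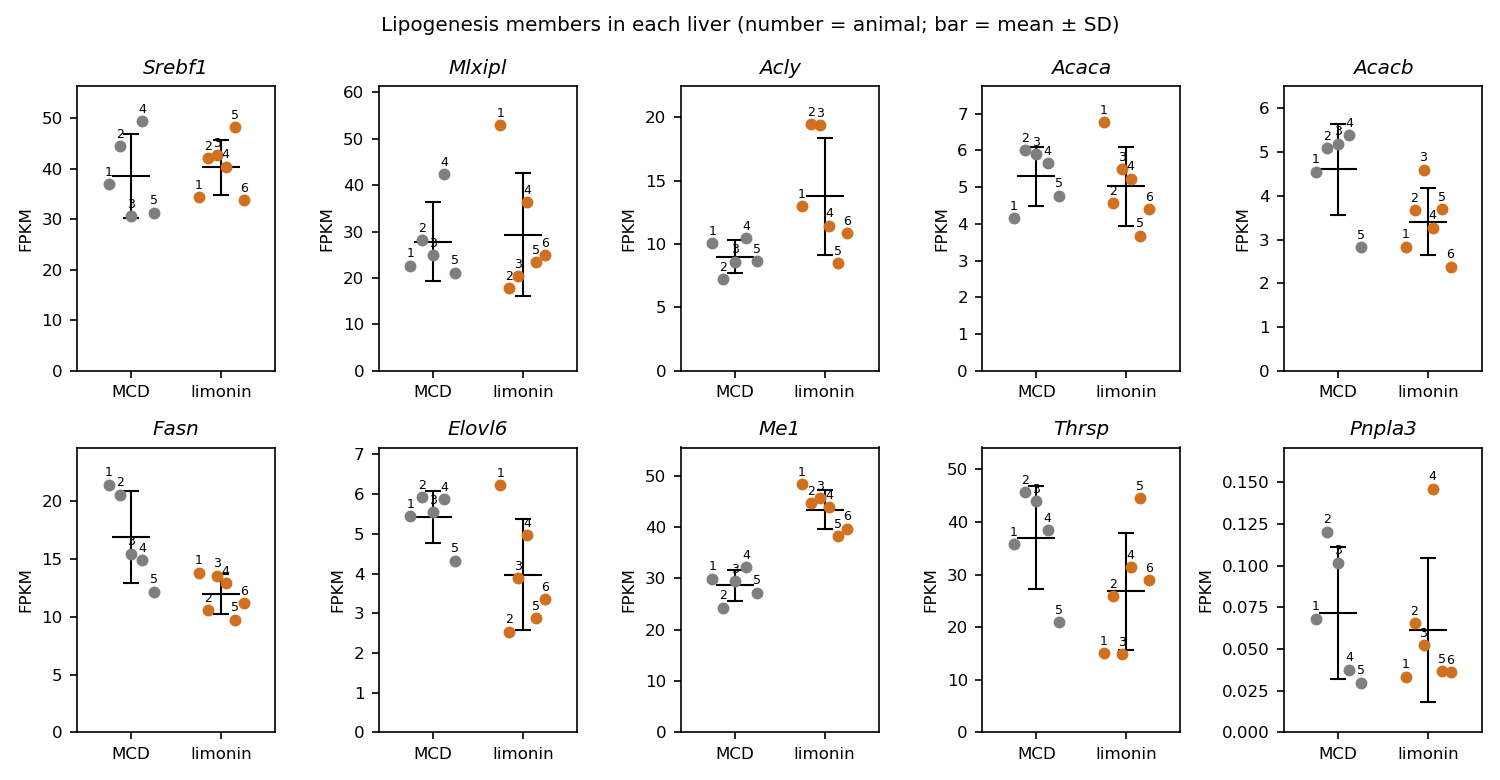
FPKM (y axis, from 0) of the 10 genes in each liver, with MCD in grey and limonin in orange; the number beside a point is the animal, and the bar is the mean ± SD of 5 or 6 livers. Me1 is the gene whose groups do not overlap, with all limonin livers at or above 38.2 FPKM and all MCD livers at or below 32.2 FPKM.

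The gene for the regulator SREBP-1, Srebf1 (chromosome 11, 60199089 to 60222581, GRCm38), was among the most abundant members. Its level was 37.0, 44.6, 30.7, 49.4 and 31.4 FPKM in MCD livers 1 to 5, and with limonin it ran from 33.8 through a median of 41.3 to 48.2 FPKM. The groups overlapped throughout, with every limonin liver inside the MCD range. The log2 fold change was 0.07 ± 0.14 (SE), with a 95% interval from -0.22 to 0.37 and an adjusted p of 0.718 (limma). The table sums all transcripts of a gene, so the SREBP-1a and SREBP-1c forms cannot be told apart, and mRNA does not show how much of the precursor protein was cleaved to its active form.

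Mlxipl (chromosome 5, 135089890 to 135138382) differed between single livers more than between groups. In MCD it was 22.6, 28.1, 24.9, 42.3 and 21.2 FPKM, and with limonin it ran from 17.9 through 24.1 to 52.9 FPKM. MCD 4 stood highest in its group, and limonin 1 and limonin 4 (52.9 and 36.4 FPKM) stood highest in theirs. Its log2 fold change was 0.02 ± 0.26 with an interval from -0.55 to 0.59 (adjusted p = 0.971, limma). Its sign turned when any of MCD 1, MCD 3, MCD 5, limonin 1 or limonin 4 was left out, to -0.17 at the lowest.

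Acly (chromosome 11, 100476353 to 100528000), the first cytosolic step, was 10.1, 7.23, 8.61, 10.4 and 8.64 FPKM in MCD and ran from 8.50 through 12.2 to 19.4 FPKM with limonin. All but 1 limonin liver lay above every MCD liver. The exception was limonin 5, at 8.50 FPKM, and limonin 2 and 3 were far above the rest at 19.4 FPKM each. The mean was 8.99 ± 1.28 FPKM (SD, n = 5) in MCD and 13.8 ± 4.60 (SD, n = 6) with limonin. The log2 fold change was 0.51 ± 0.19 with an interval from 0.11 to 0.91. The adjusted p was 0.0566 (limma), just outside the threshold. Without limonin 5 it was 0.0172 and the log2 fold change was 0.63. The adjusted p was 0.0258, 0.022 and 0.0458 under median-ratio scaling, quantile normalization and equal summed FPKM. Acly was not called in 17 of 24 alternatives, and was called in 1 of the 11 fits that leave out 1 library. Its adjusted p was 0.145 without MCD 2, 0.114 without limonin 2 and 0.139 with no filter (limma). In the authors' deposited table the q-value of Acly was 0.00354.

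The cytosolic carboxylase gene Acaca (chromosome 11, 84129672 to 84401651) was 4.16, 6.00, 5.89, 5.66 and 4.76 FPKM in MCD and ran from 3.68 through 4.90 to 6.77 FPKM with limonin. The ranges covered each other almost wholly. Its log2 fold change was -0.07 ± 0.13, with an interval from -0.35 to 0.21 (adjusted p = 0.713, limma). That sign turned with the scaling of the libraries, to 0.04 after quantile normalization and 0.03 at equal summed FPKM.

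Acacb (chromosome 5, 114146535 to 114250761), whose malonyl-CoA holds back the entry of fatty acids into mitochondria, was 4.55, 5.08, 5.19, 5.38 and 2.83 FPKM in MCD. With limonin it ran from 2.38 through 3.47 to 4.60 FPKM. MCD 5 lay apart from the other MCD livers and inside the limonin range. On the log2 scale the fold change was -0.34 ± 0.15, with an interval from -0.67 to -0.02 and an adjusted p of 0.11 (limma). Without MCD 5 it was -0.47 with an adjusted p of 0.0285 (limma). This was the 1 alternative of 23 in which Acacb was called. The largest value among them, the authors' deposited q, was 0.407.

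Since the carboxylases feed separate pools of malonyl-CoA, their ratio was compared within each liver, where the scaling of a library cancels apart from the pseudocount. The ratio of Acacb to Acaca was 1.09, 0.846, 0.881, 0.951 and 0.594 in MCD livers 1 to 5 and 0.42, 0.802, 0.837, 0.625, 1 and 0.541 in limonin livers 1 to 6. Low ratios occurred in both groups. On the log2 scale, with 1 FPKM added to each, the mean was -0.18 ± 0.26 (SD, n = 5) in MCD and -0.45 ± 0.37 (SD, n = 6) with limonin. The difference of -0.27 had a p of 0.203 by a two-sided exact permutation test over all 462 splits, which could have reached 0.00216.

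Fasn (chromosome 11, 120805846 to 120824547) was the member called lower. It stood at 21.4, 20.6, 15.5, 14.9 and 12.2 FPKM in MCD and ran from 9.73 through 12.0 to 13.8 FPKM with limonin. MCD 1 and 2 were the highest, and MCD 5 lay below 3 limonin livers, so the groups touched and 3 of 6 limonin livers lay below every MCD liver. The mean was 16.9 ± 3.94 FPKM in MCD (SD, n = 5) and 12.0 ± 1.69 FPKM with limonin (SD, n = 6). The log2 fold change was -0.45 ± 0.14 with an interval from -0.75 to -0.14 (adjusted p = 0.0343, limma). The call was lost without MCD 1 (adjusted p = 0.0917), MCD 2 (0.104), limonin 2 (0.0674), limonin 5 (0.0568) or limonin 6 (0.0618), and at equal summed FPKM (0.12). In the authors' deposited table the q-value of Fasn was 0.0524.

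Me1 (chromosome 9, 86581371 to 86695953), which makes NADPH in the cytosol as malate becomes pyruvate, was the member called higher. Its level was 30.0, 24.3, 29.5, 32.2 and 27.2 FPKM in MCD and ran from 38.2 through 44.3 to 48.4 FPKM with limonin. No limonin liver reached down into the MCD range. The mean was 28.6 ± 3.00 FPKM in MCD (SD, n = 5) and 43.4 ± 3.80 FPKM with limonin (SD, n = 6). Me1 had the smallest relative spread of all members, with coefficients of variation of 10.5% and 8.75%. The fitted log2 fold change was 0.58 ± 0.10 with an interval from 0.38 to 0.79 and an adjusted p of 0.002 (limma). Me1 kept its call under all 24 alternatives, with a largest adjusted p of 0.0162.

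Elovl6 (chromosome 3, 129532355 to 129638495) was 5.45, 5.92, 5.55, 5.88 and 4.32 FPKM in MCD and ran from 2.54 through 3.62 to 6.22 FPKM with limonin. Of the 6 limonin livers, 4 lay below every MCD liver, while limonin 1 lay above them all. Its log2 fold change was -0.41 ± 0.17, with an interval from -0.76 to -0.05 and an adjusted p of 0.0836 (limma). Without limonin 1 it was -0.52 with an adjusted p of 0.0174 (limma). This was the 1 alternative of 24 in which Elovl6 was called. The largest value among them, the authors' deposited q, was 0.272.

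Thrsp (chromosome 7, 97412938 to 97417730) encodes the small nuclear protein Spot 14, which responds to thyroid hormone and carbohydrate feeding. It had the highest median of the members in MCD, though Srebf1 had the higher mean (38.6 against 36.96 FPKM). Its level there was 35.8, 45.7, 43.9, 38.4 and 20.96 FPKM, and it ran from 14.9 through 27.5 to 44.5 FPKM with limonin. Limonin 1 and 3 were low at 15.0 and 14.9 FPKM, and limonin 5 was as high as the upper MCD livers. The log2 fold change was -0.50 ± 0.29, with a wide interval from -1.12 to 0.12 (adjusted p = 0.211, limma).

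Pnpla3 (chromosome 15, 84167837 to 84187236), a lipid droplet protein gene that SREBP-1c and ChREBP induce on feeding, was near the limit of detection. The MCD livers lay between 0.0298 and 0.12 FPKM and the limonin livers between 0.0334 and 0.146 FPKM, which at the implied depth is about 0.72 to 3.6 fragments of its longest annotated transcript. No difference was detectable at this depth and none was tested.

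**Figure D2:**
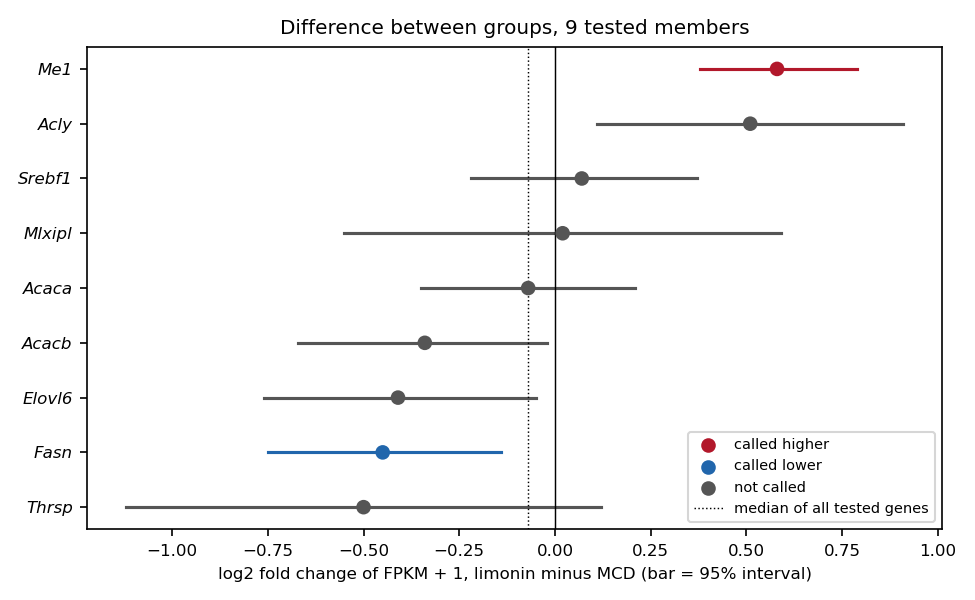
Log2 fold change of FPKM + 1, limonin minus MCD, of the 9 tested members (points) with 95% intervals (bars); the dotted line is the median of all tested genes, -0.07. Me1 (red) and Fasn (blue) are called, the interval of Acly lies above 0, those of Elovl6 and Acacb lie below 0, and those of the other 4 members include 0.

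By level per length, Thrsp (38.4 FPKM), Srebf1 (37.0), Me1 (29.5) and Mlxipl (24.9) had the highest medians in MCD. Fasn, Acly, Acaca, Elovl6 and Acacb followed at 15.5, 8.64, 5.66, 5.55 and 5.08 FPKM, and the ranges of Acaca, Elovl6 and Acacb overlapped. With limonin the order of medians changed at the top and in the middle: Me1 (44.3 FPKM) led before Srebf1 (41.3) and Thrsp (27.5), and Acly (12.2) came level with Fasn (12.0).

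**Figure D3:**
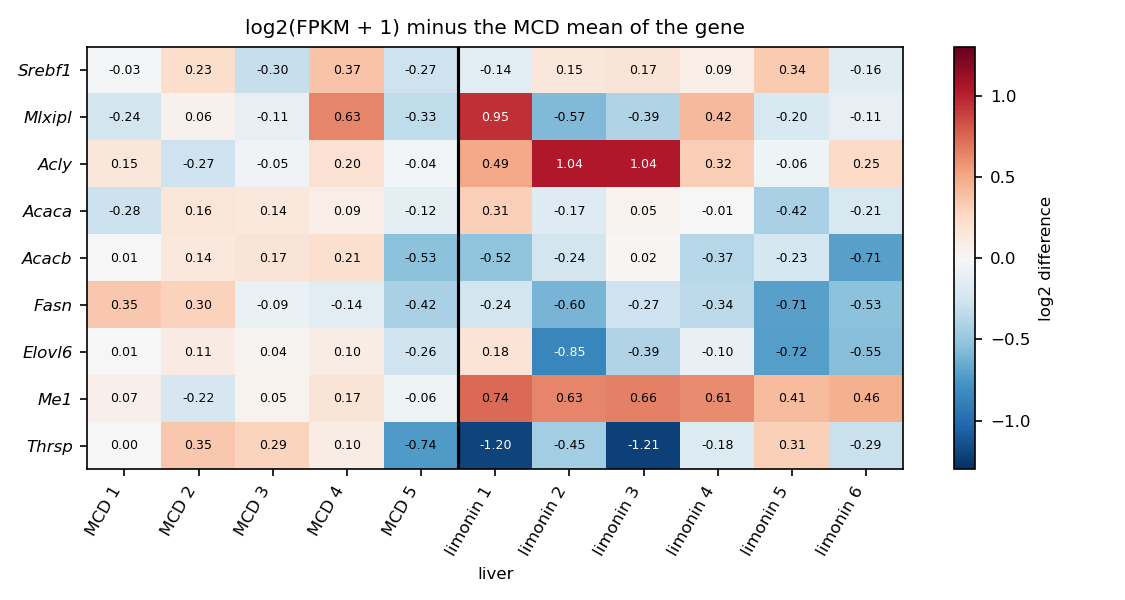
Log2(FPKM + 1) of each tested member (rows) in each liver (columns) minus the gene's mean over the 5 MCD livers; red is higher and blue lower. Me1 is above 0 in all 6 limonin livers (0.41 to 0.74) and Fasn below 0 in all 6 (-0.71 to -0.24), while Mlxipl, Acly and Thrsp vary from liver to liver.

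Single livers stood at the extremes for several members at once. MCD 4 was the highest of its group for 5 of the 9 tested members (Srebf1, Mlxipl, Acly, Acacb and Me1), and MCD 5 was the lowest for 5 (Mlxipl, Acacb, Fasn, Elovl6 and Thrsp). Limonin 1 was the highest of its group for 5 (Mlxipl, Acaca, Fasn, Me1 and Elovl6) and limonin 5 the lowest for 4 (Acly, Acaca, Fasn and Me1), although limonin 5 had the most Srebf1 and Thrsp. The FPKM were not rescaled here. The median-ratio scaling factors were 1.012 in MCD 4, 1.035 in MCD 5, 1.055 in limonin 1 and 0.8998 in limonin 5. The part of library scaling in these extremes was not tested, and no share over all genes is given beside them.

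Whether livers with more Srebf1 mRNA also had more of the other members was looked at within groups. Over the 11 livers, after the mean of each group was removed, 9 relations with Srebf1 were computed, and 0 had an adjusted p under 0.05 by exact permutation within groups, with 1 under 0.05 before adjustment. The closest relation was that of Acacb, with Pearson's r of 0.65 (exact permutation p = 0.038, adjusted 0.346) and Spearman's rho of 0.58 (p = 0.081, adjusted 0.725). Without the 2 livers farthest from the median of Srebf1, MCD 3 and 4, the r of Acacb was 0.85. Without MCD 3 alone it was 0.87 with an adjusted p of 0.0219. With any other single liver left out, the r of Acacb ran from 0.56 (MCD 5) to 0.67 (limonin 3). The adjusted p of those fits ran from 0.402 (limonin 5) to 0.831 (MCD 2) by the same permutation. Over all 11 livers, Thrsp followed with r = 0.41 (p = 0.205) and rho = 0.35 (p = 0.326) by exact permutation (adjusted 0.889 and 0.991). For Fasn r was 0.097 (p = 0.801) and rho was 0.0091 (p = 0.991), and for Acly they were 0.041 (p = 0.889) and 0.055 (p = 0.874), by the same exact permutation test. The r of Thrsp ran from 0.25 to 0.58 with 1 liver left out, and was 0.61 without MCD 3 and 4. Under median-ratio scaling r was 0.61 for Thrsp (adjusted p = 0.22 by exact permutation) and 0.64 for Acacb.

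Promoter sequence from RefSeq (GRCm38.p6) was matched for all 10 members, in 14 windows of 300 bases (250 before to 50 after an annotated start). Of the members, Srebf1, Acly, Acaca and Fasn lie on chromosome 11 and Mlxipl and Acacb on chromosome 5. Shown here are the 250 bases before the start of Fasn and Me1, which were called in opposite directions, and of Acly, which stood next to the threshold. Capitals mark the NF-Y box CCAAT and the GC box GGGCGG on either strand, and an 8-base run of capitals in Fasn is formed by overlapping boxes of opposite strands.
Fasn (chr11:120824548-120824797, minus strand): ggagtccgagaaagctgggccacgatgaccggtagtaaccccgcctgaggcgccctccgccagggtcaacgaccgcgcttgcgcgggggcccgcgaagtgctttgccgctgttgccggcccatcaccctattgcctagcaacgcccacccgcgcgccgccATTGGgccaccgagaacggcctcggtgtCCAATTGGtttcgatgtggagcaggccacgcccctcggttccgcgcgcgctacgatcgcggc
Me1 (chr9:86695915-86696164, minus strand): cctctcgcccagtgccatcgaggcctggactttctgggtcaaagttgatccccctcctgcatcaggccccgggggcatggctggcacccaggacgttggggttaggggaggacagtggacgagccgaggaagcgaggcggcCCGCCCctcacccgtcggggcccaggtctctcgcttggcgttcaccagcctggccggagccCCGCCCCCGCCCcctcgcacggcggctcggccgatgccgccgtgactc
Acly (chr11:100528001-100528250, minus strand): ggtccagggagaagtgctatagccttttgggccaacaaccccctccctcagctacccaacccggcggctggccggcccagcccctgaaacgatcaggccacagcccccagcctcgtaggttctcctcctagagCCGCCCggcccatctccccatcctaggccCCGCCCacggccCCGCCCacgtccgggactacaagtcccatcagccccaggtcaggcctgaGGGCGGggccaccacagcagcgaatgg
The Fasn stretch holds 3 CCAAT boxes (starting 90, 62 and 59 bases before the start) and no GGGCGG, and the Me1 stretch holds 3 GGGCGG boxes (109, 48 and 42 bases before) and no CCAAT. RefSeq gives Me1 another start, at 86687277, whose window holds a CCAAT 208 bases before it and no GGGCGG, so the difference from Fasn holds for the start shown only. Acly holds 4 GGGCGG boxes in this stretch. These short motifs are common: CCAAT was in 37.4% and GGGCGG in 35.6% of all 32817 windows. The longer form of the SREBP element that was searched was in 0 of the 14 member windows and in 0.235% of all, its shorter form TCACNCCAC, contained in the longer, was in 1 (Mlxipl, 1.24% of all), the E-box CACGTG in 1 (Mlxipl, 7.15% of all) and the LXR element, a repeat of AGGTCA with a 4-base gap, in 0 (0.0152% of all). The Mlxipl matches lie in different windows. TCACNCCAC is at the start 135106891, 17001 bases from the 5' end of the gene, and CACGTG is at the start 135089890. The windows of Acaca and Acacb lie 65766 and 18983 bases from the 5' ends of these genes. Both strands were searched, and a match or its absence describes these letters in this window only.

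The genes around the pathway were read from 8 lists (113 genes, 108 tested). Of these, 19 were called higher and 10 lower, a share of 26.9% against 25.9% of all genes. By direction, 19 of 108 were higher, against 7.24% of all genes tested, and 10 of 108 were lower, against 18.7%. Both background shares also apply to the counts of each list below. The median log2 fold change of the 108 genes was 0.14, and that of all genes tested was -0.07. Without a single library the number called higher was 12 (MCD 1), 6 (MCD 2), 7 (MCD 3), 11 (MCD 5), 9 (limonin 2) or 11 (limonin 4), and the number called lower was 5 without MCD 2. With no filter on low values 6 were called higher and 6 lower. The adjusted p of the called genes named here ran from 0.00165 (Scd2) to 0.0469 (Dgat2), by limma. Bracketed counts below give in how many of the 11 fits that leave out 1 library a call was lost. Losses under the other alternatives are not in these counts.

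Among 25 tested genes that control SREBP-1 and ChREBP, 3 fell and 2 rose, with a median of 0.03. Usf1, a factor that binds E-boxes of lipogenic promoters, fell from 15.6 to 11.1 FPKM (log2 fold change -0.46 ± 0.10, lost in 0). Its call was lost with the replicate block (adjusted p = 0.0581, limma). Nr1h2, which encodes the nuclear receptor LXR-beta, fell by 0.40 ± 0.12 (lost in 2: MCD 1 and MCD 2), and Mlxip, the ChREBP paralogue MondoA, by 0.33 ± 0.10 (lost in 3: MCD 1, MCD 2 and limonin 6). The calls of Nr1h2 and Mlxip were also lost at equal summed FPKM, and that of Mlxip after quantile normalization. Mlxip was near the filter, at 1.19 to 1.81 FPKM in MCD and 0.711 to 1.06 FPKM with limonin. It passed the filter through the MCD livers, the group where it was higher, which limits what its call shows. Insig1, which retains SREBP precursors in the endoplasmic reticulum and is itself a target of SREBP, rose by 0.56 ± 0.18 (lost in 6: MCD 2, 3 and 5 and limonin 2, 3 and 4). Foxo1, a factor that insulin holds out of the nucleus, rose by 0.34 ± 0.10 (lost in 4: MCD 1, 4 and 5 and limonin 2). Srebf2, Scap, Mlx and Nr1h3 (LXR-alpha) were tested and not called.

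In the supply of carbon, 3 of 14 genes of glucose and fructose entry rose and 0 fell, with a median of 0.23. The glucose transporter gene Slc2a2 rose from 32.9 to 46.6 FPKM (0.49 ± 0.12, lost in 0), Pdha1, a subunit of pyruvate dehydrogenase, rose by 0.44 ± 0.13 (lost in 2: MCD 2 and 5), and Gpd1, which makes glycerol 3-phosphate, rose by 0.46 ± 0.15 (lost in 6: MCD 1, 2 and 3 and limonin 2, 3 and 6).

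In the supply of citrate and NADPH, 1 of 11 tested genes rose and 2 fell, with a median of -0.06. The list holds 5 genes of the pentose phosphate pathway, of which 2 were called, both lower. Taldo1, its transaldolase, fell from 73.8 to 50.2 FPKM (-0.54 ± 0.13, lost in 0), and Pgls, its lactonase, fell by 0.41 ± 0.13 (lost in 5: MCD 2 and 5 and limonin 2, 4 and 6, and under median-ratio scaling and equal summed FPKM). The enzymes of that pathway that make NADPH were not called: G6pdx had -0.45 ± 0.18 (adjusted p = 0.071, limma) and Pgd had -0.30 ± 0.15 (0.17). Tkt, its transketolase, had -0.15 ± 0.13 (0.41), and Pgd and Tkt were named after their values were seen. The cytosolic malate dehydrogenase gene Mdh1, which makes the malate that malic enzyme uses, rose by 0.28 ± 0.08 (lost in 2: MCD 2 and 3).

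Downstream of palmitate, 1 of 13 tested genes rose and 1 fell, with a median of 0.04. The desaturase gene Scd2 fell from 5.38 to 2.38 FPKM (-0.93 ± 0.14, lost in 0), and the elongase gene Elovl3 rose from 1.36 to 2.78 FPKM (0.72 ± 0.21, lost in 3: MCD 1, 2 and 3). Elovl3 ran down to 0.756 FPKM in MCD and passed the filter through the limonin livers, all at or above 1.69 FPKM. Hsd17b12 and Hacd3, later steps of elongation, had 0.30 ± 0.11 (adjusted p = 0.0567, limma) and 0.18 ± 0.12. Of 10 tested genes of triglyceride assembly, 4 rose and 1 fell, with a median of 0.25. Agpat2, an acyltransferase, rose from 125.8 to 176.9 FPKM (0.49 ± 0.11, lost in 0), Agpat3 rose by 0.27 ± 0.08 (lost in 4: MCD 1, 2 and 3 and limonin 2) and Gpam, the first acyltransferase, by 0.51 ± 0.16 (lost in 6: MCD 2, 3 and 5 and limonin 1, 2 and 4). The fourth, Dgat2 at 0.31 ± 0.11, was named after its values were seen and lost its call in 9 of the 11 fits, all but those without MCD 4 or limonin 1. The number called higher in this list was thus 1 without MCD 2, MCD 3 or limonin 2, and 2 without MCD 1, MCD 5 or limonin 4. Agpat1 fell by 0.63 ± 0.14 (lost in 0).

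On the side of oxidation, which malonyl-CoA restrains, 3 of 9 genes rose and 0 fell, with a median of 0.21. Hadha and Hadhb, the subunits of the mitochondrial trifunctional protein, rose by 0.47 ± 0.10 and 0.48 ± 0.09 (lost in 0 each), and Acadm, a dehydrogenase of medium-chain fatty acids, by 0.39 ± 0.13 (lost in 6: MCD 2, 3 and 5 and limonin 1, 3 and 4). Mlycd, which breaks down malonyl-CoA, had -0.19 ± 0.09 (adjusted p = 0.155, limma). Of 17 targets of SREBP-2, the sterol branch of the family, 2 rose and 1 fell, with a median of 0.26. Mvd, of the mevalonate pathway, fell by 0.47 ± 0.11 (lost in 0), but was not called by the authors' deposited q (0.0888). Stard4, which encodes a sterol transport protein, rose by 0.43 ± 0.15 (lost in 8, kept without MCD 4 and limonin 3 and 5). Lss had 0.26 ± 0.11 (adjusted p = 0.0918, limma).

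Of 9 LXR targets outside lipogenesis 3 rose and 2 fell, with a median of 0.30. The sterol exporter gene Abcg8 rose by 0.84 ± 0.16 (lost in 0), and Abca1, a cholesterol exporter to HDL, by 0.75 ± 0.23 (lost in 7, kept without MCD 1 and limonin 3, 5 and 6). Abcg5 rose by 0.53 ± 0.18, was named after its values were seen, and lost its call in 9 of the 11 fits, all but those without MCD 4 or limonin 3. The number called higher in this list was 1 without MCD 2, MCD 3, MCD 5, limonin 2 or limonin 4. Pltp fell by 0.58 ± 0.18 (lost in 7, kept without MCD 1 and 4 and limonin 5 and 6) and Abcg1 by 0.36 ± 0.11 (lost in 5: MCD 2 and 5 and limonin 2, 4 and 6), and neither was called at equal summed FPKM or after quantile normalization, nor was Pltp under median-ratio scaling.

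**Figure D4:**
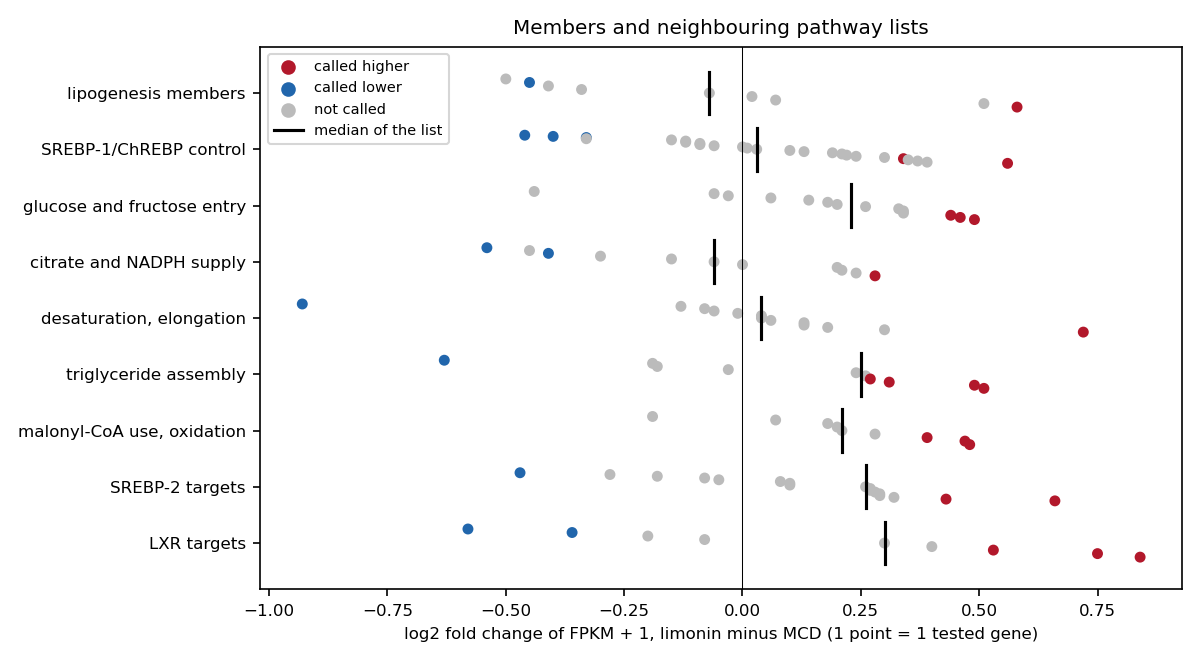
Log2 fold change of FPKM + 1, limonin minus MCD (x axis), of each tested gene (1 point) of the lipogenesis members and the 8 neighbouring lists, with calls higher in red, calls lower in blue and the median of a list as a black line. The medians run from -0.07 for the members to 0.30 for the LXR targets, and all but the malonyl-CoA and glucose lists hold calls in both directions.

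Markers of other liver cells differed between the groups beside these genes. In bulk liver, fewer cells of a type and less RNA per cell cannot be told apart. Beside the counts that follow, 7.24% of all genes tested were called higher and 18.7% lower. Of 12 hepatocyte markers 4 rose and 0 fell, with summed FPKM of 33200 to 41000 in MCD and 34900 to 52500 with limonin. Of 10 macrophage markers 5 fell and 0 rose (192 to 705 against 121 to 202), of 10 stellate cell and fibroblast markers 8 fell and 0 rose (79.4 to 154 against 50.5 to 75.2), and of 8 cholangiocyte markers all 5 tested fell (68.6 to 399 against 21.7 to 79.8). Of 7 tested endothelial markers 1 rose and 1 fell (24.1 to 43.2 against 25 to 38.6). A low marker could pass the filter through the MCD livers alone, which limits what the counts of tested markers that fell show. The macrophage marker Trem2, called lower, lay at 1.501 to 8.835 FPKM in MCD and at 0.761 to 1.525 FPKM with limonin. No marker of these lists was at 0 in all livers. Their part in the values of Me1, Fasn and Acly was not tested. Of the markers of adipocytes, which express the lipogenic genes strongly, 7 of the 9 in the table stayed under 1 FPKM in every liver, among them Adipoq at up to 0.0682 FPKM and Plin1 at up to 0.081 FPKM, and the list summed to 3.86 to 5.03 FPKM in MCD and 3.68 to 5.76 with limonin. Of 12 markers of gut, exocrine gland and muscle 3 were tested and 0 called (limma), with sums of 7.75 to 22.5 and 6.83 to 19.6 FPKM.

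**Figure D5:**
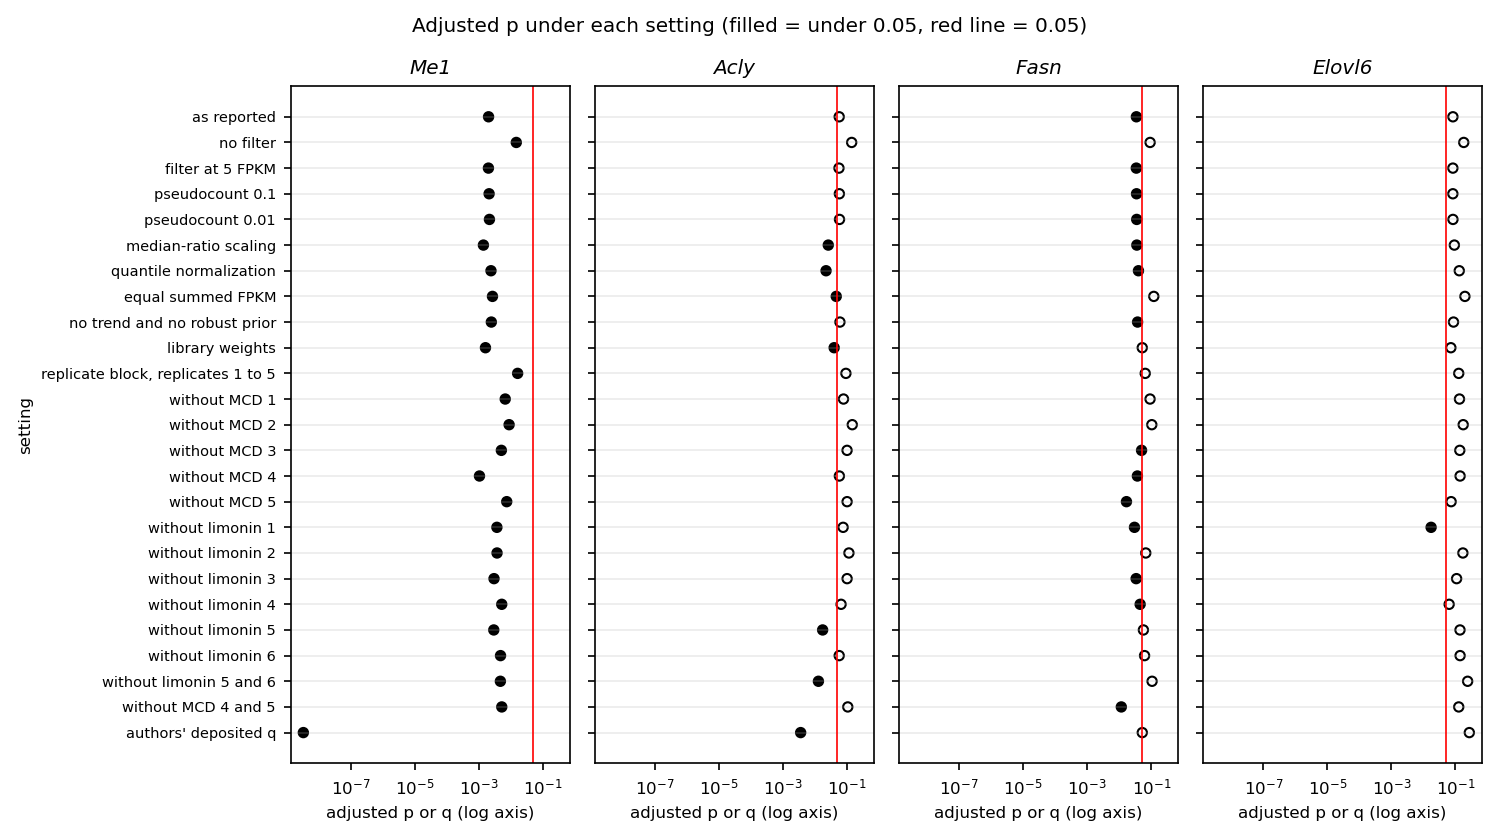
Adjusted p, or the authors' deposited q, on a log axis (x) for Me1, Acly, Fasn and Elovl6 under the reported fit and each alternative (rows), with the red line at 0.05 and filled points below it. Me1 stays below the line in every row, Acly and Fasn lie on both sides of it, and Elovl6 passes it in the fit without limonin 1.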

How the data were processed

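Liver RNA of 11 mice was measured by poly(A) RNA-seq with a dUTP procedure that marks the strand, per the labels' protocols. Per the file headers, the deposited table gives each gene an FPKM in every library. Per the file headers it also gives the authors' own comparison as a fold change (ratio), as log2 of that ratio, and with p-value and q-value. The tools were StringTie 1.3.4d, HISAT2 2.0.4 and cutadapt 1.9, per the submitters' processing notes, which name the human build GRCh38 while the identifiers are mouse ones. The authors' test, and whether strand was used, are not given in the sources used here. FPKM hold no fragment numbers. To estimate depth, the commonest low value of FPKM times length among genes with 1 transcript was taken as 1 fragment. No counting intervals are given.

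The comparison used log2(FPKM + 1) and two-sided tests of limma 3.58.1 (trend, robust; R 4.3.3) on genes reaching 1 FPKM in 5 or more libraries. A gene could pass through 1 group alone. The procedure was also run on simulated data, with independent noise for each gene, no filter and no shift between libraries. That run does not bear on the filter or the scaling of libraries. Exact permutations were run in Python 3.11.15. Gene positions are from GENCODE M21 (GRCm38). Members, lists and tests were chosen with earlier results of these data known. All members were named, with the 4 smallest p of each pathway list. Some results of these lists are not reported here. Alternatives were other filters, pseudocounts and scalings, no trend, library weights, a replicate block, left-out libraries and the deposited q-values.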

Additional observations from a re-analysis of the deposited data

Results flagged for a closer look

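In 5 of the 96 group ranges looked at (members, list genes named and the carboxylase ratio), 1 liver stood apart from the rest of its group by Dixon's test, which chance does in about 1 in 20 groups. Among the members this was Pnpla3 in limonin 4, at 0.146 FPKM with the next liver at 0.0656, both near the limit of detection. The others were G6pdx in limonin 3 (5.02 FPKM, next 3.06), Elovl3 in MCD 4 (2.92 FPKM, next 1.19), Hacd3 in limonin 2 (73.3 FPKM, next 58.5) and Abca1 in MCD 1 (3.49 FPKM, next 2.63). Each was the highest of its group.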

How the results depend on the processing

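Members called higher numbered 1, and 2 (Me1 and Acly) under median-ratio scaling, quantile normalization, equal summed FPKM, library weights, without limonin 5 and 6, and by the deposited q (1 to 2 with 1 library left out). Members called lower numbered 1, and 0 with no filter, at equal summed FPKM, with library weights, without limonin 5 and 6, by the deposited q, and with the replicate block (0 to 2 with 1 library left out). All genes called higher numbered 759, and 412 with no filter, 1288 under median-ratio scaling, 1813 after quantile normalization, 358 with the replicate block, 1332 without limonin 5 and 6, 449 without MCD 4 and 5 and 2682 by the deposited q (318 to 1087 with 1 library left out, lowest without MCD 2). Those called lower numbered 1957, and 900 at the 5 FPKM filter, 1117 at equal summed FPKM, 894 with the replicate block and 1285 without MCD 4 and 5 (996 to 2118). Higher calls were 27.9% of all calls, 42.4%, 52.9% and 49.5% after the 3 scalings, and the median of all genes was -0.07, -0.01, 0.03 and 0.03. Pathway genes called higher numbered 19, and 6 with no filter, 9 with the block, 7 without MCD 4 and 5 and 36 by the deposited q (6 to 21); those called lower numbered 10, and 6 with no filter, 5 at equal summed FPKM and 5 with the block (5 to 12). Causes of these shifts were not tested, except that fewer genes are tested under the higher filter and fewer libraries enter when some are left out. The replicate numbers did not pair the libraries: deviations of same-numbered libraries correlated between -0.235 and 0.204, over 0.1 in 1 of 5 pairs, and 1 of 5 MCD libraries correlated best with its own number. The block, on replicates 1 to 5, lost the call of Fasn (-0.43, adjusted p = 0.0648), as did leaving out limonin 6 alone (-0.43, 0.0618), and kept that of Me1 (0.61). Signs of members that were not called turned for Acaca after quantile normalization (0.04), at equal summed FPKM (0.03) and without limonin 5 and 6 (0.05). With 1 library left out they ranged from -0.17 to 0.17 for Mlxipl and from -0.00024 to 0.17 for Srebf1. The difference in the carboxylase ratio ran from -0.37 to -0.16 and was past the threshold in 0 of 14 alternatives (exact permutation p from 0.0714 to 0.381). Members co-varying with Srebf1 numbered 0, and 0 to 1 with 1 library left out. Depth limits Pnpla3, at about 0.72 to 3.6 fragments per liver.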
